A study of Mus musculus with 8 samples.

Results

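The 10 chemokine genes *Ccl2*, *Ccl6*, *Ccl8*, *Ccl9*, *Ccl11*, *Cxcl1*, *Cxcl10*, *Cxcl12*, *Cxcl13* and *Cxcl14* were followed in RNA from the tibialis anterior (TA) muscle, the fast-twitch muscle at the front of the shin, of old mice. They were chosen by gene symbol, and all 10 were found among the 16686 genes of the count table. The 4 WT Old mice were male wild-type FVBN animals, and the 4 C2-/- Old mice were males in which exons 2 to 22 of *Mybpc2*, the gene of fast skeletal myosin binding protein-C, had been replaced by a Neo cassette between LoxP sites. The replacement is constitutive and not restricted to muscle. All muscles were taken at 22 months according to the age labels, while another entry in the labels names a younger age. One library was made from poly(A) RNA of each mouse, so the smallest unit compared is the mouse (n = 4 per genotype).

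CPM are counts per 1000000 counts, with totals scaled by edgeR's TMM factors except for the following floor. Each library held between 25425993 and 29747692 counts. On these unscaled totals, 3 counts, taken as the smallest level that can be shown, corresponded to 0.101 to 0.118 CPM. That floor covers counting error only, whereas the standard errors given with fold changes are those of edgeR's fit over the mice. *Mybpc2* stood at 4963, 5447, 5099 and 7390 CPM in WT Old replicates 1 to 4 and at 4.35, 4.02, 38.3 and 3.85 CPM in C2-/- Old replicates 1 to 4 (exact permutation test, two-sided, p = 0.0286, which is the lowest possible value for 4 mice against 4). Summed CPM of 10 fast muscle fibre genes lay between 162679 and 213447 in WT Old and between 168804 and 192445 in C2-/- Old, as labelled for TA muscle. Red blood cell genes varied more, with sums from 483 to 6291 CPM in WT Old and from 907 to 5883 CPM in C2-/- Old.

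Chemokines are small secreted proteins that guide cells carrying matching receptors, which are G protein-coupled. Their names follow the spacing of the first cysteines, CC or CXC. Some, such as CXCL12, are made steadily by stromal cells, whereas others, such as CXCL1 and CCL2, are switched on within minutes to hours of injury or by cytokines such as TNF and IL-1, through transcription factors of the NF-kB family. In skeletal muscle, stromal fibro-adipogenic progenitors, endothelial cells, macrophages and the fibres themselves can all be sources, and CCL2 and its receptor CCR2 are known for bringing monocytes into injured muscle.

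The start regions of *Cxcl1* and *Cxcl10* are printed because both had their 3 highest values in the same mice, although *Cxcl10* only narrowly so in 1 of them, and that of *Ccl8* because it shared this order of mice. The bases are the 250 before the RefSeq start of each gene on GRCm38.p6, read 5′ to 3′ in the direction of transcription. Capitals mark matches to the NF-kB motif (GGG, any 3 bases, TTCC) or the interferon-response motif (TTTC, any 2 bases, TTTC) on either strand.
Cxcl1, chr5:90890995-90891244, plus strand: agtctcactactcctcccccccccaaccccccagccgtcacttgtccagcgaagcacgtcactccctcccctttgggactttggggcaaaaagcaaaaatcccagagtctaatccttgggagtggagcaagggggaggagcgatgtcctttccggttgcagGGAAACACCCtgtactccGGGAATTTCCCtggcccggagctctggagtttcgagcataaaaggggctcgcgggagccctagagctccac
Cxcl10, chr5:92348890-92349139, minus strand: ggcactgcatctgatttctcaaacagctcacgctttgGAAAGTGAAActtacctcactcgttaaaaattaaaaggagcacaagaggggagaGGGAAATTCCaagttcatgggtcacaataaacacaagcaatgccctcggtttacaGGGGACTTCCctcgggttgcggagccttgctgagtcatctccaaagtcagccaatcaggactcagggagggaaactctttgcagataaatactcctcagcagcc
Ccl8, chr11:82114935-82115184, plus strand: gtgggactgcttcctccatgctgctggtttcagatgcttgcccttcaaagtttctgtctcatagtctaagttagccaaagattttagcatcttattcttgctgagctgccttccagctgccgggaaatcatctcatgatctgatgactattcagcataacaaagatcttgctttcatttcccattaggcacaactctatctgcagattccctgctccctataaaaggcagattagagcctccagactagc
The *Cxcl1* stretch held 3 NF-kB matches, whose first bases lay 89, 71 and 70 bases before the start, and the pair nearest to the start overlap, as the letters match on both strands. In *Cxcl10*, 2 NF-kB matches lay 159 and 104 bases and 1 interferon-response match 213 bases before the start. Neither motif was found in this window of *Ccl8*. Of the 32851 mouse promoters of the same length, 4.65% held the NF-kB motif and 2.98% the interferon-response motif. Promoters of 8 of the 10 genes were matched, without *Ccl2* and *Ccl11*. Among the other 5, *Ccl9* held 1 NF-kB match, 35 bases before its start, *Cxcl14* held 1 interferon-response match, 172 bases before, and *Ccl6*, *Cxcl12* and *Cxcl13* held neither. These matches describe letters and not binding.

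*Cxcl14*, *Cxcl12* and *Ccl11* had the highest levels in the old TA muscle. In reads per kilobase of transcript, scaled to depth as for CPM (RPKM), a scale on which levels of different genes can be compared, *Cxcl14* had a median of 33.6 over the 8 mice, and *Cxcl12* and *Ccl11* of 15.6 each. The remaining 7 had medians of 1.95 for *Ccl6*, 1.05 for *Ccl2*, 0.771 for *Ccl9*, 0.754 for *Ccl8*, 0.400 for *Cxcl13*, 0.175 for *Cxcl10* and 0.140 for *Cxcl1*. The lowest mouse for *Cxcl14* (25.03 RPKM) was above the highest for *Cxcl12* (18.0 RPKM), and the lowest for *Ccl11* (14.0 RPKM) was above the highest for *Ccl6* (5.82 RPKM). No other neighbours in this order were separated over the mice, and *Cxcl12* was above *Ccl11* in 4 of 8. The order depends on the length used. With the length of all exons joined in place of the longest transcript, the median of *Cxcl12* was 10.7 RPKM, below that of *Ccl11*. *Cxcl1*, last by its median, reached 9.03, 18.4 and 10.2 RPKM in 3 mice, the second of which is above each value of *Cxcl12*. In counts, *Cxcl12* and *Cxcl14* together made up between 73.8% and 88.8% of the sum over the 10 genes.

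**Figure D1:**
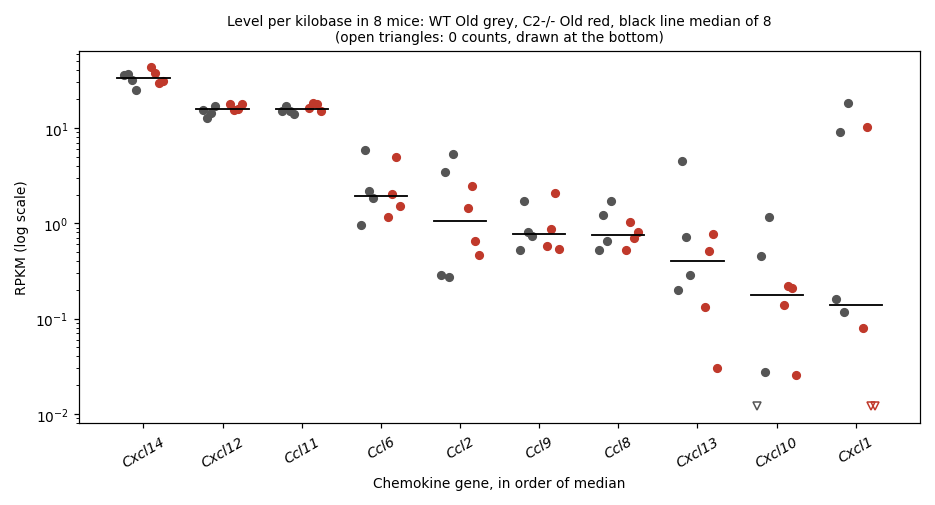
RPKM on a log axis for each chemokine gene, ordered by the median of 8 mice (black line), with 1 point per mouse, grey for WT Old and red for C2-/- Old, and open triangles at the bottom for libraries with 0 counts. *Cxcl14*, *Cxcl12* and *Ccl11* form tight groups from 14.0 RPKM upward except for 1 *Cxcl12* value of 12.8, while *Cxcl1* spreads from 0 to 18.4.

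The same 3 genes varied least from mouse to mouse. The coefficient of variation (CV, the SD as percent of the mean) of CPM over the 8 mice was 9.61% for *Ccl11*, 11.1% for *Cxcl12* and 16.6% for *Cxcl14*, beside a median of 18.4% over the 12542 genes tested. It was 45.3% for *Ccl8*, 60.1% for *Ccl9* and 70.4% for *Ccl6*. The most variable were *Ccl2* (102%), *Cxcl10* (137%), *Cxcl1* (148%) and *Cxcl13* (165%). Genes with few counts also vary more by counting alone, and *Cxcl10* never exceeded 43 counts in a library, whereas *Cxcl1* reached 484.

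**Figure D2:**
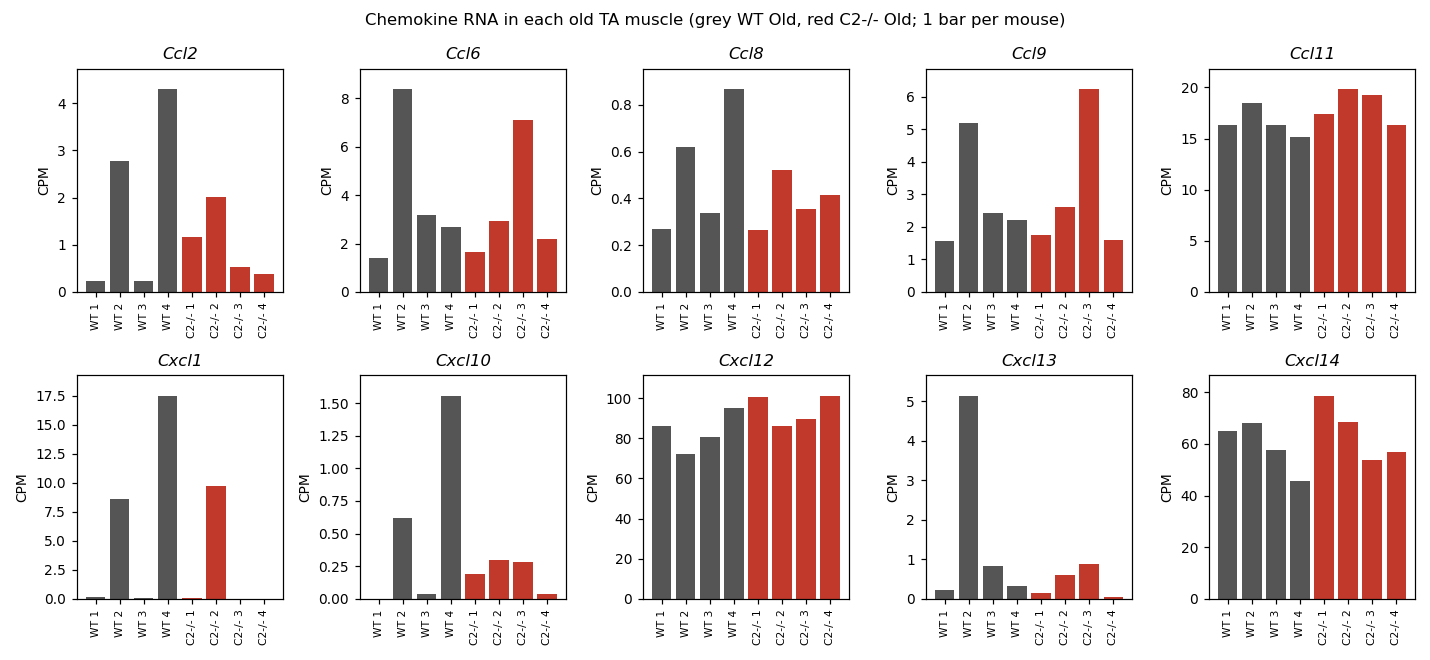
CPM of each chemokine gene in each mouse, 1 bar per library, grey for WT Old and red for C2-/- Old replicates 1 to 4, each panel with its own axis from 0. *Ccl11*, *Cxcl12* and *Cxcl14* are near level, *Cxcl1* stands high in 3 mice only, and *Ccl6* and *Ccl9* stand high in WT Old replicate 2 and C2-/- Old replicate 3.

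The first question was whether loss of *Mybpc2* was accompanied by a change of these genes. None of the chemokine genes passed the test for a difference between the genotypes. Of the 10, 8 passed edgeR's filter on low counts, whereas *Cxcl1* and *Cxcl10*, low in most mice, did not. The log2 fold change, C2-/- Old against WT Old, was positive for 4 and negative for 4 of them, where 45.8% of all 12542 tested genes were higher and 54.2% lower. A gene was called when it differed above 1.5-fold with an adjusted p under 0.05 in edgeR's quasi-likelihood test. None of the 8 was called, beside 0.0319% of all genes tested, which are the 4 genes *Eif3j1*, *Ahcy*, *Emc10* and *Mybpc2*. None had an unadjusted p under 0.05 either (5.29% of all genes tested), with 0.0868 for *Cxcl13* as the smallest. *Ccl2* and *Cxcl13* differed above 1.5-fold at any p, 2 of 8 where 7.3% of all genes tested do, and 0 of 8 did so with an unadjusted p under 0.05 (3.03% of all genes tested). DESeq2 called 0 of them too, where it called 38 of all genes tested, and 0 were above 1.5-fold with an unadjusted p under 0.05 in it, where 416 of all genes tested were. In none of the 8 were the 2 groups of mice separated without overlap (3.37% of all genes tested). The median log2 fold change of the 8 was −0.04, and that of all genes tested −0.02. As 4 mice per genotype were compared, the errors are wide for the variable genes, with standard errors from 0.87 to 1.49 on the log2 scale for *Ccl2*, *Cxcl13*, *Cxcl10* and *Cxcl1*.

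**Figure D3:**
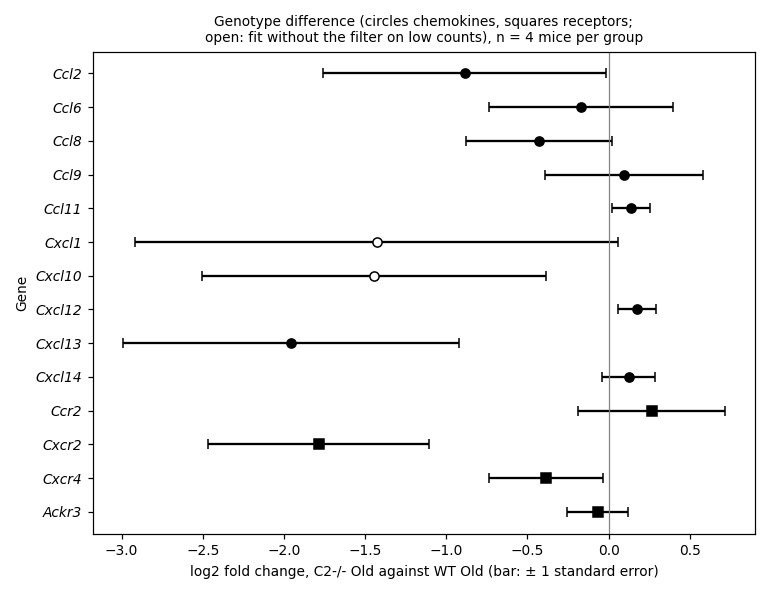
Log2 fold change of C2-/- Old against WT Old with bars of 1 standard error, n = 4 mice per group, for the chemokine genes (circles) and 4 of their receptors (squares), open symbols being values from the fit without the filter on low counts. *Ccl11*, *Cxcl12* and *Cxcl14* sit between 0.12 and 0.18 with short bars, and *Cxcl13* sits lowest at −1.96 with a bar of 1.03.

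*Cxcl12* (chromosome 6, 117168535 to 117181368) encodes the ligand of CXCR4, which keeps blood stem cells in the marrow and guides muscle precursors in development. It measured 86.1, 72.2, 80.8 and 95.1 CPM in WT Old replicates 1 to 4 and 100.5, 86.1, 89.6 and 101.2 CPM in C2-/- Old replicates 1 to 4. Both groups overlap, with 2 C2-/- Old mice above all WT Old mice. The log2 fold change was 0.18 ± 0.12 (SE, n = 4 per group, edgeR's quasi-likelihood test, adjusted p = 0.968). *Cxcl14* (chromosome 13, 56288643 to 56296794), a chemokine of epithelia and stroma without an agreed signalling receptor, measured 65.0, 67.9, 57.7 and 45.7 CPM in WT Old and 78.6, 68.4, 53.9 and 56.7 CPM in C2-/- Old (0.12 ± 0.16 on the log2 scale, edgeR adjusted p = 0.976). Its highest mouse was C2-/- Old replicate 1 and its lowest WT Old replicate 4, with the others mixed. *Ccl11* (chromosome 11, 82057832 to 82062955), which encodes eotaxin-1, the attractant of eosinophils through CCR3, measured 16.3, 18.5, 16.3 and 15.1 CPM in WT Old and 17.4, 19.9, 19.3 and 16.3 CPM in C2-/- Old. Its log2 fold change was 0.14 ± 0.12 (edgeR adjusted p = 0.968), and it kept a positive value between 0.10 and 0.20 in each alternative fit. Of the cells it attracts, eosinophils, the defining marker *Siglecf* was at 0 in 5 of 8 mice and never above 0.0373 CPM. *Epx* and *Prg2*, also on the marker list, were not among the genes counted. The 6 markers of eosinophils and mast cells that were found summed to 9.41 to 12.8 CPM in WT Old. In C2-/- Old they summed to 9.40 to 12.3 CPM. As *Siglecf* adds so little, this sum does not measure eosinophils.

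Markers of the stroma, a source of these 3 chemokines, were read beside them. The summed level of 12 markers of fibro-adipogenic progenitors was 379 to 494 CPM in WT Old and 563 to 572 CPM in C2-/- Old. These sums did not overlap, and none of the 12 was at 0. *Dcn*, a large part of the sum, lay at 185 to 262 CPM in WT Old and 270 to 317 CPM in C2-/- Old. Gene by gene, 3 of the 12 had groups without overlap (3.37% of all genes tested). All 12 were tested and had positive log2 fold changes (45.8% of all genes tested), with 4 at an unadjusted p under 0.05 (3.38% of all genes tested in that direction) and a smallest adjusted p of 0.647. As they mark the same cells in the same libraries, their shared direction is not 12 separate results. Markers of endothelial cells, which also make *Cxcl12*, summed to 296 to 425 CPM in WT Old and 291 to 396 CPM in C2-/- Old. The part of stromal cell content in the levels of *Cxcl12*, *Cxcl14* and *Ccl11* was not tested. In bulk RNA, fewer cells of a type and less RNA per cell cannot be told apart.

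*Cxcl1*, *Ccl2*, *Ccl8* and *Cxcl10*, 4 of the 10 genes, had their 3 highest values in the same 3 mice, WT Old replicates 2 and 4 and C2-/- Old replicate 2. This order of mice was noticed after the values were seen, and 3.36% of all genes tested show it. Among the 8 tested chemokine genes only *Ccl2* and *Ccl8* have it, as *Cxcl1* and *Cxcl10* did not pass the filter. The order cuts across the genotypes and is given as a description. *Cxcl1* (chromosome 5, 90891245 to 90893121), the neutrophil attractant that signals through CXCR2, measured 0.154, 8.60, 0.112 and 17.5 CPM in WT Old replicates 1 to 4 and 0.0757, 9.70, 0 and 0 CPM in C2-/- Old. These values rest on 4, 236, 3 and 484 counts in WT Old and 2, 261, 0 and 0 counts in C2-/- Old. Thus 3 libraries held at least 236 *Cxcl1* reads and the other 5 at most 4. Without the filter its log2 fold change was −1.43 ± 1.49 (edgeR adjusted p = 0.887).

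*Ccl2* (chromosome 11, 82035577 to 82037452), the monocyte attractant that signals through CCR2, measured 0.231, 2.77, 0.224 and 4.31 CPM in WT Old replicates 1 to 4. In C2-/- Old replicates 1 to 4 it measured 1.17, 2.01, 0.532 and 0.381 CPM. The C2-/- Old mice thus lay between the low and the high pair of WT Old mice. The log2 fold change was −0.89 ± 0.87 (edgeR adjusted p = 0.968) over all mice, and it was 1.59 ± 0.71 (edgeR adjusted p = 0.9999) when the 3 named mice were left out, an alternative chosen after seeing the data that leaves 2 WT Old and 3 C2-/- Old mice. These 3 are also the mice with the highest *Ccl2*, 2 of them WT Old. That value therefore depends on the choice of mice, and it supports nothing further. Without WT Old replicate 4 alone the value was −0.06, and on all 8 mice it was −0.17 with limma-voom and −0.08 with quality weights.

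*Ccl8* (chromosome 11, 82115185 to 82116799), a product of tissue macrophages that attracts monocytes and T cells, measured 0.270, 0.620, 0.336 and 0.868 CPM in WT Old and 0.265, 0.521, 0.355 and 0.416 CPM in C2-/- Old. Its counts were low, from 7 to 24 per library, and its log2 fold change was −0.43 ± 0.45 (edgeR adjusted p = 0.970), or −0.06 without WT Old replicate 4. *Cxcl10* (chromosome 5, 92346638 to 92348889), the interferon-induced ligand of CXCR3, was counted 0, 17, 1 and 43 times in WT Old and 5, 8, 8 and 1 times in C2-/- Old. Its value in C2-/- Old replicate 2 (0.297 CPM) was barely above that in C2-/- Old replicate 3 (0.284 CPM). Without the filter, its log2 fold change was −1.45 ± 1.06 (edgeR adjusted p = 0.867). Exons of *Art3* on the opposite strand overlap those of *Cxcl10*, and as the strand setting of the counting is not given in the sources used here, reads of the 2 genes may have been mixed.

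The neighbours of these genes in their clusters showed the order in part. *Ccl7*, which lies between *Ccl2* and *Ccl11* and encodes another CCR2 ligand, measured 0, 1.57, 0.149 and 3.18 CPM in WT Old and 0.303, 1.75, 0.284 and 0.0693 CPM in C2-/- Old. *Cxcl2*, next to *Cxcl1* and also a CXCR2 ligand, measured 0, 1.57, 0 and 1.92 CPM in WT Old and 0.0378, 0.929, 0 and 0.0347 CPM in C2-/- Old. By contrast, *Ccl11*, which lies between *Ccl7* and *Ccl8*, was nearly level, and *Ccl12* in the same cluster was highest in WT Old replicate 2 but at 0.217 CPM in WT Old replicate 4, below 5 other mice. Of the 23 other chemokine genes in the table, 5 had the same 3 highest mice, namely *Ccl7*, *Cxcl2*, *Ccl24*, *Ccl3* and *Ccl4*. These names were chosen after their values were seen.

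Genes that switch on within minutes of a stimulus were high in the same 3 mice. Of 13 immediate early genes, 11 had this order, the exceptions being *Nr4a1* and *Dusp1*. *Fos*, which encodes a subunit of the AP-1 transcription factor, measured 4.47, 70.8, 7.80 and 245 CPM in WT Old and 1.85, 123, 2.23 and 0.901 CPM in C2-/- Old. So did 5 of 17 inducing cytokines and signalling genes, *Tnf*, *Il1b*, *Il6*, *Nfkbia* and *Cebpb*. *Tnf* measured 0.193, 1.17, 0.336 and 3.58 CPM in WT Old and 0.340, 1.30, 0.0709 and 0.139 CPM in C2-/- Old. The part of such an early response in the chemokine levels was not tested. Among cell type markers, 3 of 8 for neutrophils (*S100a9*, *Retnlg* and *Csf3r*) had this order of mice, as did *Cxcr2*, 1 of 16 for macrophages (*Cd14*) and none of 12 for progenitors. The part of neutrophils in these chemokine levels was not tested.

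**Figure D4:**
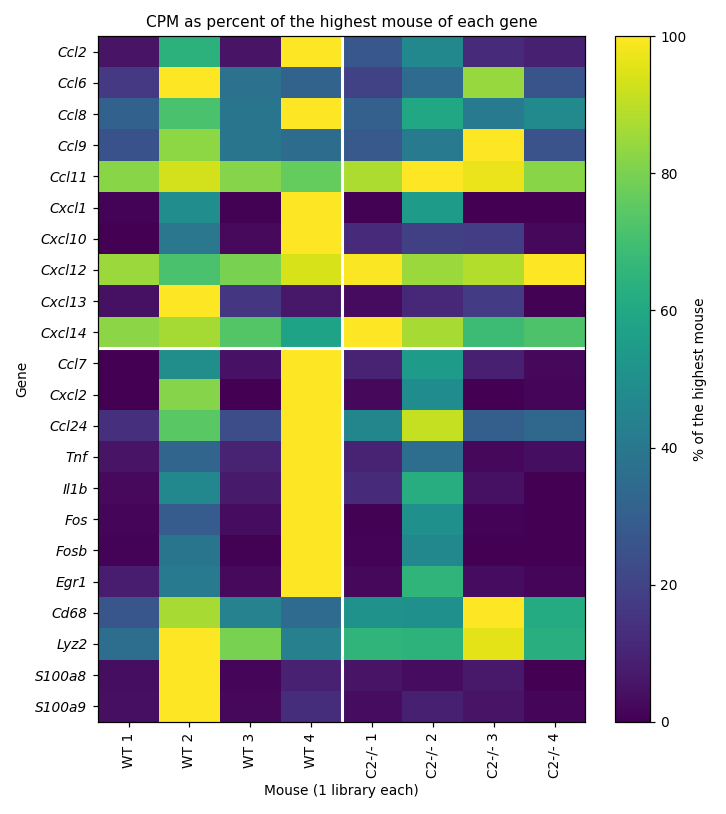
CPM of each gene as percent of its highest mouse, with the 10 chemokine genes above the white line and other chemokines, cytokines, immediate early genes and cell markers below it, and WT Old left and C2-/- Old right of the vertical line. *Cxcl1*, *Ccl2*, *Ccl7*, *Cxcl2*, *Tnf*, *Il1b*, *Fos*, *Fosb* and *Egr1* are brightest in WT Old replicates 2 and 4 and C2-/- Old replicate 2, whereas *Ccl6* and *Ccl9* follow *Cd68* in WT Old replicate 2 and C2-/- Old replicate 3.

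*Ccl6* and *Ccl9*, neighbours on chromosome 11 (83587886 to 83593087 and 83572917 to 83578636) that encode related rodent chemokines of myeloid cells binding CCR1, followed another order. *Ccl6* measured 1.39, 8.39, 3.17 and 2.68 CPM in WT Old and 1.66, 2.94, 7.09 and 2.18 CPM in C2-/- Old. *Ccl9* measured 1.58, 5.18, 2.43 and 2.21 CPM in WT Old and 1.74, 2.60, 6.24 and 1.59 CPM in C2-/- Old. Both were highest in WT Old replicate 2 and C2-/- Old replicate 3, 1 mouse of each genotype. Pearson's r between them, on log2 CPM over the 8 mice, was 0.96, a description of libraries that share depth and tissue makeup. The log2 fold changes were −0.17 ± 0.57 for *Ccl6* (edgeR adjusted p = 0.990) and 0.10 ± 0.49 for *Ccl9* (edgeR adjusted p = 0.996). Each changed sign when single mice were left out, as *Ccl6* stood at −0.79 and *Ccl9* at −0.53 without C2-/- Old replicate 3, and at 0.53 and 0.56 without the highest WT Old mouse. The *Ccl9* transcript shares stretches of at least 100 bases at 95% identity or more with 22 other genes, so part of its counts is uncertain.

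Some macrophage markers shared this order of mice. Of 16, 7 were highest in WT Old replicate 2 and C2-/- Old replicate 3, where 6.96% of all genes tested have that order, and none was at 0 in any mouse. They include *Cd68*, a lysosomal protein of macrophages, at 3.16, 10.2, 5.23 and 4.12 CPM in WT Old and 6.02, 5.91, 11.7 and 7.24 CPM in C2-/- Old, and *Lyz2*, lysozyme. Others did not share it, as *Folr2* was lowest in WT Old replicate 2 (0.328 CPM) and *Csf1r*, the receptor that macrophages need to survive, was highest in C2-/- Old replicate 4 (14.7 CPM). Summed over the 16, the level was 51.7 to 111 CPM in WT Old and 73.8 to 124 CPM in C2-/- Old, overlapping widely, and 14 were tested, 10 with positive and 4 with negative log2 fold changes, none with an unadjusted p under 0.05. The part of macrophage content in *Ccl6* and *Ccl9* was not tested.

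*Cxcl13* (chromosome 5, 95956939 to 95961068) encodes the attractant of B cells through CXCR5. It measured 0.231, 5.14, 0.821 and 0.326 CPM in WT Old replicates 1 to 4 and 0.151, 0.595, 0.886 and 0.0347 CPM in C2-/- Old replicates 1 to 4. One mouse, WT Old replicate 2, held 141 counts, and no other held over 25. The log2 fold change of −1.96 ± 1.03 (edgeR adjusted p = 0.968) was the most negative of the 8 and became −0.13 without that mouse. WT Old replicate 2 was also the highest mouse for 8 of 8 neutrophil markers, which summed to 56.4 CPM there and to at most 10.8 CPM elsewhere, while 27.5% of all genes tested were highest in it. *S100a8* and *S100a9*, which encode the main cytosolic proteins of neutrophils, stood at 12.8 and 16.7 CPM in that mouse. Among the 8, *Ngp*, *Ltf* and *Camp* were at 0 in some of the others and did not pass the filter. The 5 tested all had negative log2 fold changes (54.2% of all genes tested), and 3 had an unadjusted edgeR p under 0.05 (5.29% of all genes tested in either direction). Their smallest adjusted p was 0.914. As all were highest in the same mouse, their shared direction is not 5 separate results. The part of neutrophils in *Cxcl13* was not tested.

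Lymphocyte markers, which would mark the cells that CXCL13 attracts, were low in both groups. They summed to 0.411 to 1.23 CPM in WT Old and to 5.45, 2.16, 1.13 and 2.29 CPM in C2-/- Old replicates 1 to 4. Only C2-/- Old replicate 3 lay within the WT Old range. Of the 11 markers, 9 were at 0 in some mice, including the T cell genes *Cd3e*, *Cd3d* and *Cd3g* and the B cell gene *Ms4a1*. *Cxcr5*, the receptor, was at 0 counts in all WT Old mice and at 0.378, 0.297, 0 and 0.104 CPM in C2-/- Old (edgeR without the filter, adjusted p = 0.827). The mouse with the highest *Cxcl13* was thus not among those with *Cxcr5* reads. The only lymphocyte marker tested, *Cd79a*, a subunit of the B cell receptor, measured 0.540, 0.219, 0.224 and 0.217 CPM in WT Old and 2.57, 1.08, 0.106 and 0.762 CPM in C2-/- Old. Its log2 fold change was 1.90 ± 0.75 (edgeR unadjusted p = 0.0285, adjusted p = 0.884).

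**Figure D5:**
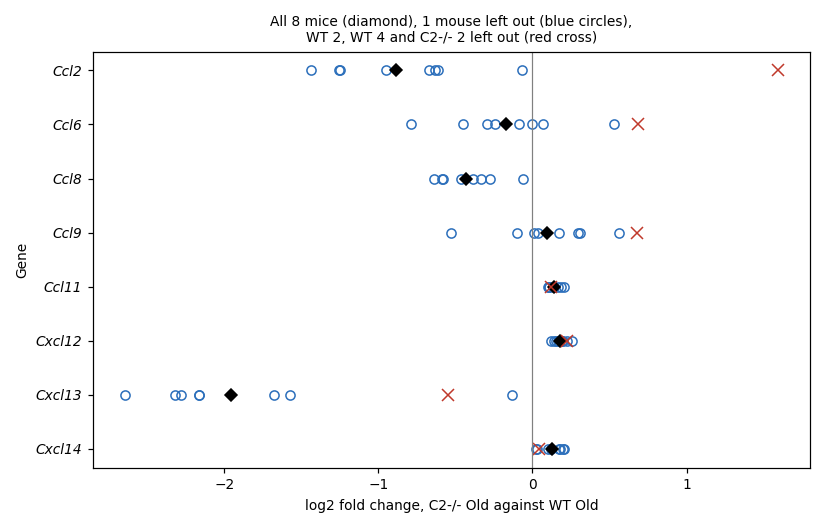
Log2 fold change of the 8 tested chemokine genes over all mice (diamond), with 1 mouse left out (blue circles) and with WT Old replicates 2 and 4 and C2-/- Old replicate 2 left out (red cross). *Ccl11*, *Cxcl12* and *Cxcl14* stay between 0.02 and 0.26, while *Ccl2* runs from −1.43 to −0.06 with 1 mouse left out and reaches 1.59 with 3, and *Cxcl13* runs from −2.64 to −0.13.

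Receptors of these chemokines were mostly too low to test. Of 13 receptor genes 12 were in the table, and only *Ccr2*, *Cxcr2* and *Cxcr4* passed the filter. The missing gene was *Ccr3*, so the receptor named above for CCL11 could not be read. *Cxcr2*, the neutrophil receptor for CXCL1, measured 0.578, 3.06, 0.523 and 0.651 CPM in WT Old and 0.303, 0.669, 0.248 and 0.173 CPM in C2-/- Old. It was highest in WT Old replicate 2, as the neutrophil markers were, and its log2 fold change of −1.79 ± 0.68 had an edgeR p of 0.0250 and an adjusted p of 0.878. Without that mouse it was −0.74, no longer with an unadjusted p under 0.05, which was also lost without C2-/- Old replicate 1, 3 or 4 and with limma-voom. *Cxcr4* measured 5.17, 2.59, 2.65 and 1.48 CPM in WT Old and 2.80, 2.23, 1.63 and 2.43 CPM in C2-/- Old (−0.39 ± 0.35 on the log2 scale, edgeR adjusted p = 0.968). *Ccr2* lay between 0.335 and 1.17 CPM over the 8 mice (0.26 ± 0.45, edgeR adjusted p = 0.984). *Ccr1*, which binds CCL6 and CCL9, lay between 0.142 and 0.912 CPM and was highest in WT Old replicate 2, and *Cxcr3* lay between 0 and 0.292 CPM. *Ccr8*, a receptor of CCL8 in mice, had reads only in WT Old replicate 4 (0.0724 CPM, under 3 counts).

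Atypical receptors take up chemokines without signalling through G proteins. *Ackr3*, which scavenges CXCL12, measured 21.8, 16.9, 25.8 and 23.4 CPM in WT Old and 19.0, 27.3, 15.4 and 22.2 CPM in C2-/- Old (−0.07 ± 0.19 on the log2 scale, edgeR adjusted p = 0.989). Of the 5 atypical receptors, 4 were tested, 2 with positive and 2 with negative log2 fold changes, none with an unadjusted p under 0.05. *Ackr1*, the endothelial receptor that carries chemokines across the vessel wall, was highest in WT Old replicate 2 at 7.07 CPM and lay between 1.31 and 3.20 CPM in the others (−0.30 ± 0.44, edgeR adjusted p = 0.982). *Ackr2*, a scavenger of inflammatory CC chemokines, and *Ccrl2* had log2 fold changes of 0.40 ± 0.33 and 0.02 ± 0.35 (edgeR adjusted p = 0.968 and 0.998).

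Among 12 genes that present chemokines on heparan sulphate or cut them, all were tested, 9 with positive and 3 with negative log2 fold changes, and 3 had an unadjusted p under 0.05, all higher in C2-/- Old (3.38% of all genes tested), but none passed adjustment. *Mmp2*, which encodes a matrix metalloproteinase known to cleave and inactivate CXCL12, measured 23.8, 23.0, 32.9 and 24.5 CPM in WT Old and 36.9, 46.8, 42.4 and 51.5 CPM in C2-/- Old. The lowest C2-/- Old value exceeded the highest of WT Old. It was the only 1 of the 12 genes without overlap, where 3.37% of all genes tested have none. The log2 fold change of *Mmp2* was 0.77 ± 0.15 (edgeR adjusted p = 0.391). It stayed above 1.5-fold with an unadjusted p under 0.05 in the 16 alternative fits, and passed adjustment in 1 of them, DESeq2. *Mmp14*, the membrane protease that activates MMP2, and *Sdc2*, a heparan sulphate carrier, had log2 fold changes of 0.43 ± 0.19 and 0.49 ± 0.20 (edgeR adjusted p = 0.937 and 0.918), both with an unadjusted p under 0.05. *Dpp4*, the peptidase that trims the N-termini of CXCL12 and CXCL10, had a log2 fold change of 0.52 ± 0.25 (edgeR adjusted p = 0.968). *Mmp2* is also expressed by the progenitor cells, of whose 12 markers 3 did not overlap between the groups. The part of these cells in its level was not tested.

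In the list of inducing cytokines and signalling genes, 13 of 17 were tested, 6 with positive and 7 with negative log2 fold changes and none with an unadjusted p under 0.05. Among those with the smallest p were *Cebpb*, a transcription factor of inflammatory genes (−0.82 ± 0.41), *Nfkbia*, the inhibitor of NF-kB (−0.48 ± 0.33), and *Irf7* (0.31 ± 0.21), each with an edgeR adjusted p of 0.968. *Irf7* belongs to the interferon response, and *Ifng*, the gene of the interferon-gamma that induces *Cxcl10*, was at 0 in all WT Old mice and at no more than 2 counts in C2-/- Old. Of 15 genes of receptor signalling 13 were tested, 9 with positive and 4 with negative log2 fold changes, and none had an unadjusted p under 0.05. Their smallest p belonged to *Rgs2*, which shortens G protein signals (0.52 ± 0.30), *Arrb2*, an arrestin (−0.18 ± 0.13), and the G protein subunits *Gnai3* (−0.13 ± 0.13) and *Gnai2* (−0.09 ± 0.11). All 13 immediate early genes had negative log2 fold changes (54.2% of all genes tested), with a median of −0.90 and none with an unadjusted p under 0.05. As 11 of them were highest in the same 3 mice, 2 WT Old and 1 C2-/- Old, their shared direction is not 13 separate results. Among them *Dusp1* (−0.80 ± 0.45), *Atf3* (−1.501 ± 0.94), *Nr4a1* (−0.45 ± 0.29) and *Zfp36* (−1.002 ± 0.85) had the smallest p.

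Of the 23 other chemokine genes 7 were tested, 4 with positive and 3 with negative log2 fold changes, none with an unadjusted p under 0.05. *Cx3cl1*, which encodes fractalkine, the membrane-bound ligand of CX3CR1, had the smallest p and measured 2.81, 3.24, 3.14 and 3.94 CPM in WT Old and 5.22, 3.27, 3.79 and 4.47 CPM in C2-/- Old (0.35 ± 0.20 on the log2 scale, edgeR adjusted p = 0.968). *Cxcl16* (0.46 ± 0.32), *Ccl28* (0.80 ± 0.64) and *Ccl25* (0.17 ± 0.25) came next, each with an adjusted p of at least 0.968. The near-identical copies *Ccl21a*, *Ccl21b* and *Ccl21c*, which encode the ligand of CCR7, share reads and are uncertain one by one.

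For each tested chemokine gene, the 3 tested genes with the highest Pearson correlation of log2 CPM over the 8 mice were read out, as a description of libraries that share tissue makeup. *Ccl2* was most like *Nfkbiz*, a nuclear IkB protein (r = 0.96), *Arl4d* (r = 0.96) and the eosinophil attractant *Ccl24* (r = 0.95). *Nfkbiz* measured 0.540, 5.83, 0.560 and 10.9 CPM in WT Old and 1.13, 5.69, 1.17 and 0.693 CPM in C2-/- Old, with the same 3 mice on top. Among the genes most like *Ccl8* were *Rnmt* and *Pygm* (r = 0.95 for each). *Ccl6* was most like *Uhrf1bp1l*, *Hspa4* and *Cd164* (r = 0.98, 0.98 and 0.97) and *Ccl9* like *Tpbgl*, *Hspa4* and *Ccl6* (r = 0.97, 0.96 and 0.96). *Ccl11* was most like *Clec14a*, *Medag* and *Rarres2*, the gene of the attractant chemerin (r = 0.95, 0.92 and 0.91). *Cxcl12* was most like *Gm46430*, *4930579G24Rik* and *Arvcf* (r = 0.96 for each), *Cxcl13* like *Tpp2*, *Nup160* and *Trmt10c* (r = 0.97, 0.97 and 0.96), and *Cxcl14* like *Arpc5*, *Isyna1* and *Cfap20* (r = 0.97 for each). For *Cxcl1*, which did not pass the filter and is added outside that rule, the 3 were the immediate early genes *Ier2*, *Fosb* and *Junb* (r = 0.99 for each).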

How the data were processed

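RNA from 8 TA muscles, 1 per mouse, was sequenced on DNA nanoballs after poly(A) selection. The authors deposited 1 table of expected counts per gene, not normalized, of which 5.50% to 6.53% per mouse are not whole numbers. The submitters' processing notes name HISAT, Bowtie2, DESeq2 and GRCm38.p6, and the study's methods name featureCounts and limma-voom. The strand setting is not given in the sources used here. The authors' DESeq2 columns and 16 columns of FPKM and TPM were not used. Groups came from the labels, where nothing pairs the mice.

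Counts of 16686 genes were rounded, and 25 symbols were restored from gene IDs. edgeR 4.0.16 (R 4.3.3) was run with TMM factors (0.929 to 1.03), its default filter (12542 genes left), the quasi-likelihood test and Benjamini-Hochberg adjustment. CPM uses TMM-scaled totals. The SE is the log2 fold change divided by the root of F. RPKM uses the longest protein-coding transcript of the GENCODE annotation of GRCm38. Log2 CPM has a prior count of 2. The fit was tested on simulated data. Similar transcripts were sought with blastn 2.17.0. Promoters are from RefSeq (GRCm38.p6).

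The chemokine genes and lists were chosen with earlier results of these data known. Named genes are the chemokines, *Mybpc2*, their receptors, up to 4 genes of each pathway list with the smallest p, and the 3 most correlated genes, of which some are not reported here. Others, among them *Fos*, *Tnf*, *Il1b*, *Ccl7*, *Cxcl2*, *Cd68*, *Lyz2*, *S100a8*, *S100a9* and *Cd79a*, were named after their values were seen. Alternatives were RLE size factors, limma-voom 3.58.1 without and with quality weights, DESeq2 1.42.0, other filters, a replicate block and leaving out each mouse.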

Additional observations from a re-analysis of the deposited data

Results flagged for a closer look

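In 7 values, 1 mouse lay far from the other 3 of its group (the gap to the nearest mouse over the group's range exceeded Dixon's critical value), which chance gives in about 1 in 20 groups. The number of values screened is not given here, so whether 7 is more than chance would give cannot be told. *Cxcl1* stood at 9.70 CPM in C2-/- Old replicate 2 and at no more than 0.0757 CPM in the other C2-/- Old mice. Summed immediate early genes stood at 1999 CPM in the same mouse. *Cxcl13* stood at 5.14 CPM, *Cxcr2* at 3.06 CPM and the summed neutrophil markers at 56.4 CPM in WT Old replicate 2. Summed eosinophil and mast cell markers were low in C2-/- Old replicate 3, at 9.40 CPM. *Mybpc2* stood at 38.3 CPM in C2-/- Old replicate 3 and between 3.85 and 4.35 CPM in the other C2-/- Old mice.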

How the results depend on the processing

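Of 129 values of the chemokine genes under the alternatives, 122 kept their direction and their side of the threshold and 7 changed sign, none past the threshold. *Ccl2* stood at −0.17 with limma-voom and *Cxcl13* at −0.85 with quality weights. *Ccl2* turned to 1.59 without the 3 mice with the highest *Fos*, an alternative chosen after seeing the data, in which *Ccl8*, *Cxcl1* and *Cxcl10* did not pass the filter. *Ccl6* turned to 0.13 with quality weights, 0.53 without WT Old replicate 2, 0.07 without C2-/- Old replicate 1 and 0.68 without the 3 mice. *Ccl9* turned to −0.10 without WT Old replicate 1 and −0.53 without C2-/- Old replicate 3. With 1 mouse left out, *Ccl6* ran from −0.79 to 0.53 and *Ccl9* from −0.53 to 0.56. Calls over all genes were 4, but 38 with DESeq2, 7 without WT Old replicate 2 as the most with 1 mouse left out, and 2 without the 3 mice, where *Mybpc2* stood at −8.34 (adjusted p = 0.110). At an unadjusted p, 380 genes became 584 without the filter and between 325 and 592 with 1 mouse left out, the 592 without WT Old replicate 3. In the pathway lists, 0 calls became 1 with DESeq2 (*Mmp2*). At an unadjusted p, 2 (*Cxcr2* and *Mmp2*) became 1 with voom, with quality weights and with at least 10 counts in every mouse, 6 without the filter, 10 without the 3 mice and between 1 and 17 with 1 mouse left out, the 17, mostly immediate early genes, without C2-/- Old replicate 2. Mean *Cxcl12* RPKM was 10.2 in WT Old and 11.5 in C2-/- Old over all exons joined. On that length, *Cxcl12* took rank 3 by its median and *Ccl11* rank 2, and *Ccl2* went from rank 5 to 7. The cause of these changes was not tested. The replicate numbers did not pair the mice (correlations of deviations between −0.05 and 0.27, and 2 of 8 mice were most like their own number). With the replicate block, *Ccl2* stood at −0.27, and 1 chemokine gene, *Cxcl13*, and 4 pathway genes had an unadjusted p under 0.05 above 1.5-fold. *Cxcl13* also did without WT Old replicate 1, so that leaving out 1 mouse gave between 0 and 1 such genes. At 3 counts, levels under 0.118 CPM on unscaled totals cannot be told from 0.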

Other observations

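Cell types that the chemokine comparisons do not touch also varied. Tendon markers, which mark the sheath and ends of the muscle, summed to 59.7 to 197 CPM in WT Old and 100.3 to 277 CPM in C2-/- Old, and 7 of the 8 tested had positive log2 fold changes, 2 of them with an unadjusted p under 0.05 (3.38% of all genes tested in that direction). Adipocyte markers summed to 89.8 to 134 CPM in WT Old and 95.6 to 147 CPM in C2-/- Old, with 6 of 7 positive and none past that p. Schwann cell markers summed to 53.7 to 114 CPM in WT Old and 47.6 to 86.8 CPM in C2-/- Old, with 5 of 6 negative and none past that p. None of these lists held a gene with an adjusted p under 0.05 in edgeR's quasi-likelihood test, where 0.857 was the smallest.

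*Ccr7*, the receptor of CCL19 and CCL21 on dendritic cells and lymphocytes, had too few reads for the filter and measured 0, 0.109, 0 and 0.0362 CPM in WT Old and 0.189, 0.372, 0.390 and 0.243 CPM in C2-/- Old. The 2 groups did not overlap (edgeR without the filter, adjusted p = 0.817), where 3.37% of all genes tested do not. These values rest on 0, 3, 0 and 1 counts in WT Old and 5, 10, 11 and 7 counts in C2-/- Old. No WT Old value was thus above the floor of 3 counts, and the separation lies close to it. The gene was named after its values were seen.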
